A study of Mus musculus with 6 samples.

Results

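The genes described are 9 members of the coagulation, thrombin receptor and fibrinolysis system, out of 17128 genes in a count table from sorted stromal cells of the mouse femur. They were selected by symbol: F13a1, F10, F5, F7, F3, F2r, F2rl2, Thbd and Plat. They were chosen from a comparison of the same libraries, in which F13a1, F10 and F2rl2 were strongly lower, so the differences between groups given for members are a description and support nothing. All 9 were present in the table, and 8 passed the filter on low counts, which F7 did not.

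The CXCL12-deficient group held GFP+ tdTomato+ cells of mice with the genotype Cxcl12(GFP/fl), Col2a1-cre and R26R(tdTomato/+), in 3 libraries. The control group held GFP+ cells of mice with Cxcl12(GFP/fl) and R26R(tdTomato/+) but no cre, also in 3 libraries. All mice were at postnatal day 21, and in both groups GFP replaced one Cxcl12 allele while the other was floxed. Col2a1-cre acts in cells of the cartilage lineage and their descendants, so the cre, the loss of Cxcl12 and the tdTomato gate differed together between the groups and cannot be told apart. The femurs had lost their distal growth plates and proximal ends before the cells were released with collagenase and sorted. Nothing in the labels says that the libraries came from separate animals, so the spread behind each p-value may be technical. The replicate numbers are names given here in deposit order, and a shared number ties no library of one group to one of the other.

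Total counts ran from 22865174 to 25155012 in the CXCL12-deficient libraries and from 20133299 to 28009257 in the control libraries, and 1 read was worth between 0.0357 and 0.0472 CPM, the count scaled to the effective size of its library. Cxcl12 itself, summed over its deposited exons, had 1288 ± 130 CPM in CXCL12-deficient libraries and 3745 ± 112 CPM in control libraries (SD, n = 3 each). The 10 stromal markers, with Lepr and Cxcl14 among them, summed to between 7776 and 9203 CPM in CXCL12-deficient libraries and to between 7472 and 8234 CPM in control libraries, and each was detected in every library. This sum includes Cxcl12, the gene targeted by the cre, so its overlap does not show that the other stromal markers were alike. Of these 10, 1 had a negative log2 fold change (Cxcl12) and 9 a positive one. Called by edgeR were 1 lower (Cxcl12) and 3 higher (Adipoq, Ebf3 and Cxcl14), with 1 lower and 8 higher at an unadjusted p below 0.05. Across 13926 tested genes, edgeR's quasi-likelihood test called 4.57% at an adjusted p below 0.05, with 3.94% lower and 0.639% higher in the CXCL12-deficient libraries. Libraries of the groups did not overlap, with the CXCL12-deficient ones lower, at 13.9% of tested genes, and with them higher at 11.7%.

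Blood clots through a cascade of proteases that begins when tissue factor (F3) binds factor VII (F7) and activates factor X (F10). Activated factor X, with factor V (F5) as its cofactor, cuts prothrombin to thrombin, which makes fibrin, and factor XIII (A subunit, F13a1) cross-links the fibrin strands. Thrombin also signals to cells by cutting protease-activated receptors, among them PAR1 (F2r) and PAR3 (F2rl2), and is held in check by thrombomodulin (Thbd), while tissue plasminogen activator (Plat) starts the dissolution of fibrin. Many clotting factors in plasma come from the liver. Marrow also holds other sources, since F13a1 is known from monocytes, macrophages and megakaryocytes, F5 from megakaryocytes, and mouse F2rl2 from platelets, where it assists PAR4. Thbd and F2r are known from endothelium, and F3 from stromal cells around vessels.

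Several of the genes are neighbours. In GENCODE M21 on GRCm38, F7 (13026034 to 13035809) and F10 (13037308 to 13056676) lie on the plus strand of chromosome 8 with 1498 bases between them. F2r (95601803 to 95618487, minus strand) and F2rl2 (95696853 to 95702739, plus strand) lie on chromosome 13 with 78365 bases between them. F2rl2 sits wholly inside Iqgap2, a gene of the opposite strand, and shares 0 exon bases with it. F13a1 spans 36867178 to 37050244 on the minus strand of chromosome 13, and 74 of its exon bases are shared with the antisense gene Gm30489. F5 spans 164151838 to 164220277 on the plus strand of chromosome 1 and shares 262 exon bases with the long non-coding RNA gene Gm16548. The Nextera XT kit named in the labels does not mark strand, so reads in these shared bases cannot be told apart.

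RefSeq promoter windows of GRCm38.p6, each running from 250 bases before the start of a gene to 50 bases after it, were matched for 7 of the 9 members, and for Thbd and Plat none was matched. Those of the 4 genes that were lowest relative to controls are shown with that of F2r, so that the receptor neighbours can be compared. Capitals mark matches on either strand to the letters of 5 motifs. Those for GATA factors, the regulators of blood and megakaryocyte genes, were AGATAA, and with another first base TGATAA as well. For ETS factors the letters searched were AGGAAG on both strands. For the leucine zipper factors NF-E2 and AP-1 they were TGACTCA on both strands. For C/EBP factors of myeloid cells they were TTGCNNAA, where N is any base. For the core promoter box bound by the general initiation machinery they were TATAAA, called the TATA letters here.
F13a1, chr13:37050195-37050494, minus strand: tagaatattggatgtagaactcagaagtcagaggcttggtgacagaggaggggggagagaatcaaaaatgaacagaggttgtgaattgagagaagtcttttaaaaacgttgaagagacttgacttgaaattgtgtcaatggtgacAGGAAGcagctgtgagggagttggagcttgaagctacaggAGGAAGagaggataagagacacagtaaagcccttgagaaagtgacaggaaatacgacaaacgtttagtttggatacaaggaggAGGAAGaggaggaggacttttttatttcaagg
F10, chr8:13037058-13037357, plus strand: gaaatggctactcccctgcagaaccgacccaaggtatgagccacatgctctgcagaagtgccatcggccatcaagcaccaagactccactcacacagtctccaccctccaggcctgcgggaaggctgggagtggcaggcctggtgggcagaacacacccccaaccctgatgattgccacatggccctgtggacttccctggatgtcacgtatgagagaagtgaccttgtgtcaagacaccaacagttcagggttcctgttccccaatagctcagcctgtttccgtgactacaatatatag
F5, chr1:164151585-164151884, plus strand: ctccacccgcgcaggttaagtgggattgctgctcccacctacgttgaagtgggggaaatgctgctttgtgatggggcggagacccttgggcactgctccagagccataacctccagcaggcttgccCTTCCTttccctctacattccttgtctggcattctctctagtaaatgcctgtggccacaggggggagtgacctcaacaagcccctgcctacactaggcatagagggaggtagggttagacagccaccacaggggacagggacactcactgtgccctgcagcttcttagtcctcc
F2rl2, chr13:95696670-95696969, plus strand: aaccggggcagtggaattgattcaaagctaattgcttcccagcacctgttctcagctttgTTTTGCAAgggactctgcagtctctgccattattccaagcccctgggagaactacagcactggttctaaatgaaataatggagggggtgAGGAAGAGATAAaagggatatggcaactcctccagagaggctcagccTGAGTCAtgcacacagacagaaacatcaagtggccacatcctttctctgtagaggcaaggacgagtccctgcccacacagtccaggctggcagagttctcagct
F2r, chr13:95618417-95618716, minus strand: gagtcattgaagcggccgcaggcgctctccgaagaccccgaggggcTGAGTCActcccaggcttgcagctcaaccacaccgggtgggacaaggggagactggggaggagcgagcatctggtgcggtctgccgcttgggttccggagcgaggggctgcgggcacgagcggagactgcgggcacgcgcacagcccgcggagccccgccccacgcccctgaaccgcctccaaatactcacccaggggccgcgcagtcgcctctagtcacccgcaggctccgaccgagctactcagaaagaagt

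The window of F2rl2 held the ETS letters from 101 to 96 bases before the start, directly followed by the GATA letters, which ended 90 bases before it, and none of its matches overlapped another. It also held the NF-E2 letters, ending 48 bases before the start, and the C/EBP letters, ending 183 bases before it. Of all 32851 windows, 18.6% held the GATA letters, 35.4% the ETS letters, 5.2% the NF-E2 letters, 10.8% the C/EBP letters and 13.6% the TATA letters. The F13a1 window held 3 ETS matches and its second RefSeq window, at a start 37049213, held 2. F5 held 1 ETS match, and the F10 window held none of the letters searched, as did that of F7. F2r and F3 each held the NF-E2 letters once, and F3 also held the TATA letters on the opposite strand. F2r and F3 had 28 and 32 CpG pairs and GC contents of 68.7% and 70.3%, while the windows of F13a1, F10, F5, F7 and F2rl2 had between 2 and 5 CpG pairs and the median of all windows was 7.0. These matches describe letters in a window and show no binding.

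**Figure D1:**
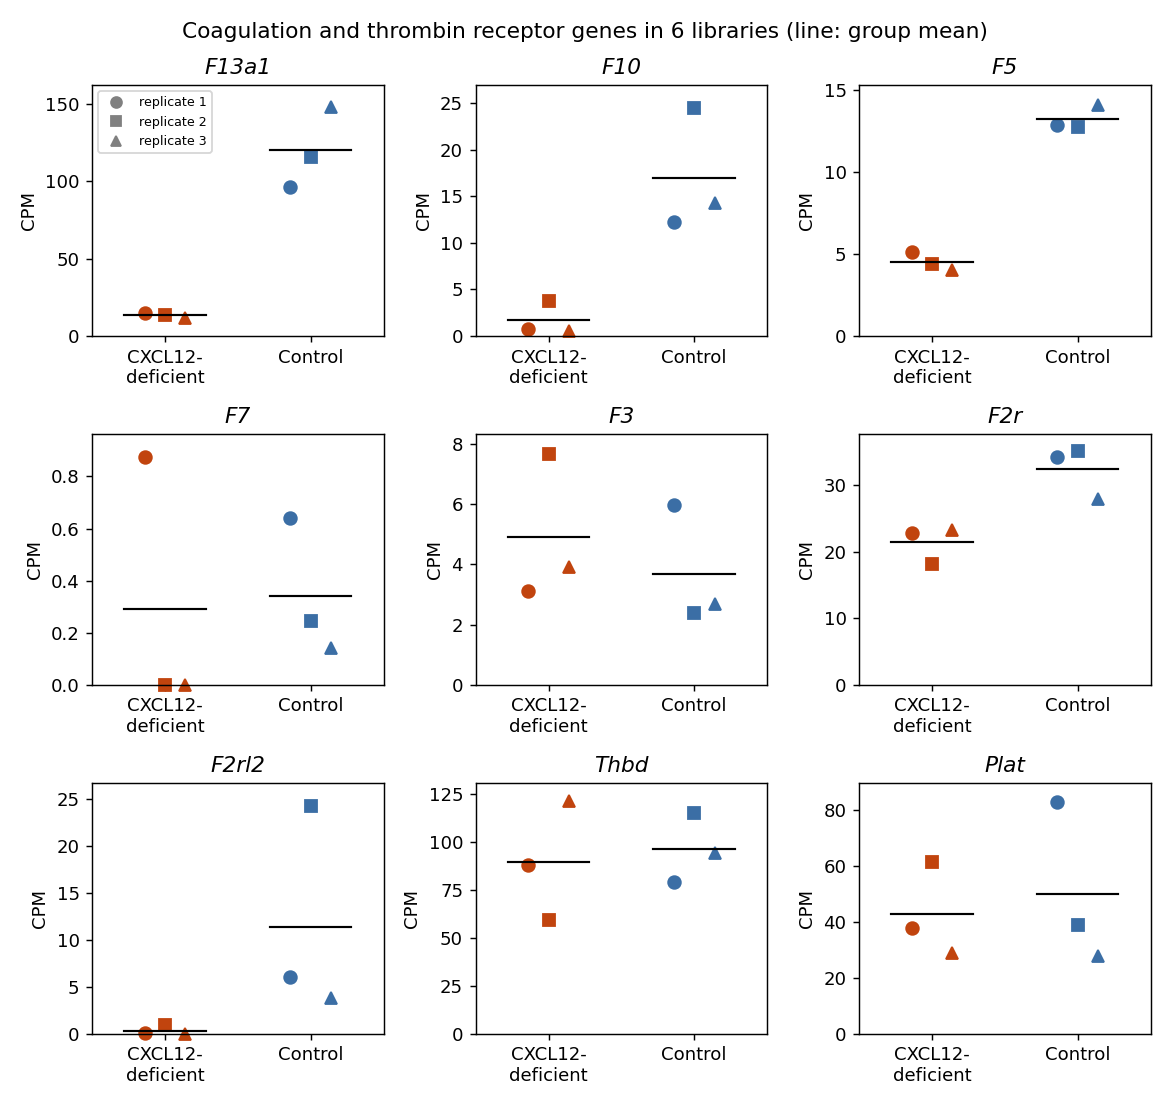
Level of each of the 9 genes in CPM (vertical axes, from 0) in CXCL12-deficient (left) and control (right) libraries, with 1 symbol per replicate and a line at the group mean. F13a1, F10, F5, F2r and F2rl2 did not overlap between the groups, and the other 4 genes did. Over all tested genes, 13.9% did not overlap with the CXCL12-deficient libraries lower, and 11.7% with them higher. The members were chosen on this comparison.

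Factor XIII, factor X and factor V, which act at the end of the cascade, were lower in every CXCL12-deficient library than in any control library. F13a1 had 14.9, 13.8 and 11.3 CPM in CXCL12-deficient replicates 1, 2 and 3, against 96.3, 116 and 148 CPM in control replicates 1, 2 and 3. The CXCL12-deficient libraries lay close together and the groups were far apart, with a mean 9.0-fold lower (log2 fold change -3.17 ± 0.21, SE). F10 had 0.708, 3.79 and 0.577 CPM in CXCL12-deficient replicates 1, 2 and 3, against 12.2, 24.5 and 14.3 CPM in control replicates 1, 2 and 3. The groups did not overlap, although CXCL12-deficient replicate 2 stood well above the other CXCL12-deficient libraries, and the CXCL12-deficient mean was 10.1-fold lower (log2 fold change -3.33 ± 0.69). F5 had 5.12, 4.36 and 3.99 CPM in CXCL12-deficient replicates 1, 2 and 3, against 12.9, 12.8 and 14.1 CPM in control replicates 1, 2 and 3. It was the least variable of the 9 genes among controls, with a coefficient of variation of 5.48%, and was 2.95-fold lower (log2 fold change -1.56 ± 0.27).

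Of the genes that start the cascade, F3 overlapped between the groups and F7 was too low to be tested. F3 had 3.12, 7.67 and 3.91 CPM in CXCL12-deficient replicates 1, 2 and 3, against 5.96, 2.40 and 2.69 CPM in control replicates 1, 2 and 3. CXCL12-deficient replicate 2 and control replicate 1 were its highest libraries, and its log2 fold change of 0.41 ± 0.52 was smaller than its SE. F7 was close to the limit of detection, with 21, 0 and 0 reads in CXCL12-deficient replicates 1, 2 and 3, against 18, 6 and 3 reads in control replicates 1, 2 and 3. In the libraries with 0 reads, 3 reads would have stood for 0.131 and 0.133 CPM, so a lower level was not detectable at this depth.

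The thrombin receptors differed from each other in level and in spread. F2r had 22.7, 18.1 and 23.3 CPM in CXCL12-deficient replicates 1, 2 and 3, against 34.2, 35.1 and 27.9 CPM in control replicates 1, 2 and 3. The groups did not overlap but lay near each other, with a ratio of means of 0.66 (log2 fold change -0.60 ± 0.20, not past the threshold). F2rl2 had 0.0416, 0.915 and 0 CPM in CXCL12-deficient replicates 1, 2 and 3, from 1, 21 and 0 reads, against 6.07, 24.3 and 3.78 CPM in control replicates 1, 2 and 3. Controls spread 6.43-fold among themselves for F2rl2, far more than the 1.26-fold of F2r, and control replicate 2 stood above the others. The mean of F2rl2 was 35.7-fold lower (log2 fold change -5.14 ± 1.21), a size that rests on 22 reads in all in the CXCL12-deficient libraries. Iqgap2, whose introns hold F2rl2, had 5.91, 7.63 and 10.1 CPM in CXCL12-deficient replicates 1, 2 and 3, against 6.49, 20.6 and 19.2 CPM in control replicates 1, 2 and 3 (log2 fold change -0.97 ± 0.43, adjusted p = 0.27, edgeR).

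The members that limit or dissolve clots, Thbd and Plat, overlapped between the groups. Thbd had 88.4, 59.2 and 122 CPM in CXCL12-deficient replicates 1, 2 and 3, against 79.2, 116 and 94.3 CPM in control replicates 1, 2 and 3. Its groups overlapped, with a log2 fold change of -0.10 ± 0.26. Plat had 37.7, 61.6 and 29.0 CPM in CXCL12-deficient replicates 1, 2 and 3, against 82.9, 38.9 and 27.9 CPM in control replicates 1, 2 and 3. Control replicate 1 and CXCL12-deficient replicate 2 were the highest libraries of their groups for both Plat and F3, and Plat had a log2 fold change of -0.22 ± 0.41.

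Of the 8 members tested, edgeR called 4 lower (F13a1, F10, F5 and F2rl2) and 0 higher, where 3.94% and 0.639% of all tested genes were called in these directions. No member was higher at an unadjusted p below 0.05. DESeq2 called 4 lower and 0 higher, and limma-voom called 3 lower and 0 higher. F2rl2 was the member that limma-voom did not call (log2 fold change -6.27), and edgeR did not call it without the filter on low counts (-5.14). The median log2 fold change of the 8 was -1.08, beside 0.03 over all tested genes. As the members were chosen on this comparison, nothing is read from these counts. With 1 library left out, F13a1 was called in 6 of 6 refits and its log2 fold change ran from -3.33 to -3.01. F5 was called in 4 refits, not without control replicate 2 (-1.58) or control replicate 3 (-1.53). F10 was called in 2 refits. It was not called without CXCL12-deficient replicate 1 (-2.95), CXCL12-deficient replicate 3 (-2.92), control replicate 2 (-2.97) or control replicate 3 (-3.45), and its log2 fold change was -4.71 without CXCL12-deficient replicate 2. F2rl2 was called in 1 refit, that without CXCL12-deficient replicate 2, where its log2 fold change was -8.74. It was -4.61 and -4.57 without CXCL12-deficient replicates 1 and 3, and -5.46, -3.93 and -5.57 without control replicates 1, 2 and 3.

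**Figure D2:**
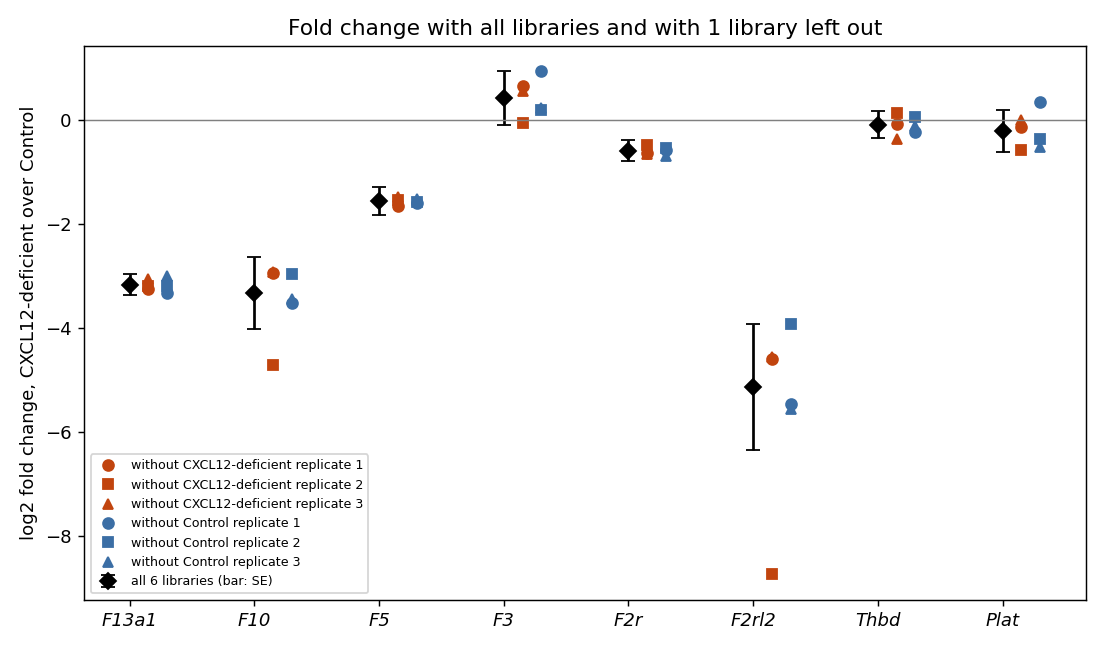
Log2 fold change of CXCL12-deficient over control libraries (vertical axis) for the 8 tested genes, from all 6 libraries (diamond, with SE) and with each library left out (coloured symbols, by group and replicate). F13a1 ran from -3.33 to -3.01, while F2rl2 ran from -8.74 to -3.93 and F3, Thbd and Plat changed sign.

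The order of levels was read within each group, as CPM per kilobase of annotated exons, since counts grow with transcript length. In the CXCL12-deficient libraries Thbd led with 24.1 ± 8.41 CPM per kilobase (SD, n = 3), above Plat with 6.85 ± 2.70, and the ranges of these did not overlap. Plat and F2r (6.41 ± 0.857) overlapped, and so did F13a1 (1.98 ± 0.272) with F3 (1.94 ± 0.962), F3 with F10 (0.62 ± 0.666), and F10 with F5 (0.605 ± 0.0774). F7 (0.157 ± 0.272) and F2rl2 (0.128 ± 0.207) came last and overlapped. In the control libraries Thbd had 25.9 ± 4.90 CPM per kilobase and F13a1 17.8 ± 3.86, with overlapping ranges. They were followed by F2r with 9.71 ± 1.18, Plat with 7.99 ± 4.67, F10 with 6.23 ± 2.40, F2rl2 with 4.55 ± 4.50, F5 with 1.78 ± 0.0975 and F3 with 1.46 ± 0.782, each overlapping the next. F13a1 stood clear of F2r, and F7 (0.184 ± 0.142) stood clear of F3. F13a1 ranked below Plat and F2r in CXCL12-deficient libraries and above both in control libraries, and F2rl2 was last in CXCL12-deficient libraries and above F5, F3 and F7 in control libraries. With the longest transcript as the length, F13a1 came first in controls, where 3 of 9 ranks were kept.

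**Figure D3:**
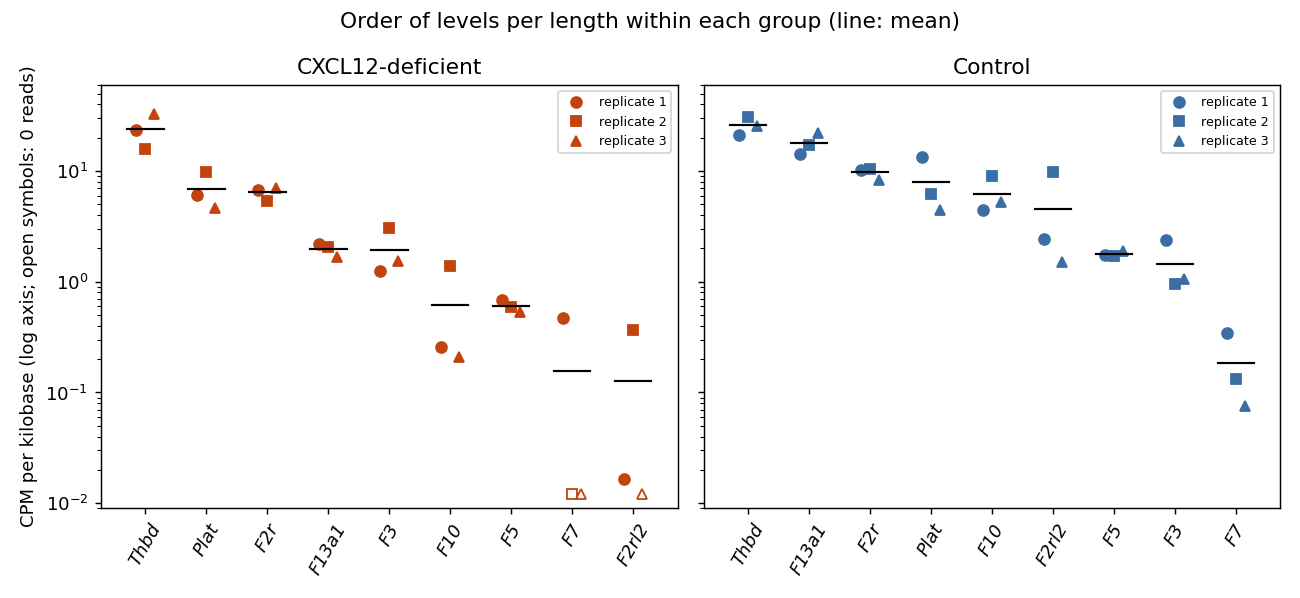
CPM per kilobase of exon (log axis) of the 9 genes in order of their mean, in CXCL12-deficient (left panel) and control libraries (right panel), with 1 symbol per replicate, a line at the mean and open symbols for 0 reads. Thbd had the highest mean in both groups, but in the control libraries its range overlapped that of F13a1. With the longest transcript as the length, F13a1 came first there. F13a1 lay below Plat and F2r in the CXCL12-deficient libraries and above them in the control libraries.

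The summed markers of megakaryocytes, monocytes and neutrophils were lower in each CXCL12-deficient library than in any control library, while erythroid markers overlapped. Of 9 megakaryocyte and platelet markers, 8 were tested and 6 were called lower, with a summed level of 8.96 to 15.5 CPM in CXCL12-deficient libraries and 91.7 to 290.2 CPM in control libraries. The collagen receptor gene Gp6 had 0 reads in all 3 CXCL12-deficient libraries, where 3 reads would have stood for 0.125 to 0.133 CPM. Pf4 and Ppbp, genes of platelet granule chemokines, had 1.88 and 0.642 CPM in CXCL12-deficient libraries and 45.1 and 39.2 CPM in control libraries. Of 12 monocyte and macrophage markers 7 were called lower, with a sum of 401 to 820.5 CPM in CXCL12-deficient libraries and 2203 to 3378 CPM in control libraries. None of the 12 was at 0, with Lyz2 at 431.5 and Cd14 at 30.8 CPM in CXCL12-deficient libraries, against 2326 and 129.6 CPM in control libraries. Of the 5 markers not called, Cx3cr1, Mpeg1, Cd68 and Adgre1 had log2 fold changes of -2.02, -1.63, -0.85 and -0.53, and Fcgr1 had 0.47. Cx3cr1, Mpeg1 and Cd68 were lower at an unadjusted p below 0.05 (edgeR). Lyz2 made up most of the sum in each library. The sum alone therefore does not show that macrophages fell, and this was not tested. Of 12 neutrophil markers 10 were called lower, with a sum of 2932 to 7415 CPM in CXCL12-deficient libraries and 15730 to 21330 CPM in control libraries, led by Ngp and Ltf.

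The endothelial sum was lower as well, while the pericyte and osteoblast sums overlapped between the groups. Of 11 endothelial markers 5 were called lower, Pecam1 among them, and 1 higher (Ramp2), with sums of 49.6 to 89.2 CPM in CXCL12-deficient libraries and 124 to 182 CPM in control libraries. The megakaryocyte, monocyte, neutrophil and endothelial sums each had an exact two-sided permutation p = 0.1, the smallest that 3 against 3 allows. Of 6 erythroid, 6 pericyte and 7 osteoblast markers edgeR called 0, with 0, 1 and 0 at an unadjusted p below 0.05. DESeq2 called 1 pericyte marker lower and no other in these lists, and limma-voom called 0. The erythroid sum was 1199 to 4270 CPM in CXCL12-deficient libraries and 1706 to 2669 CPM in control libraries, led by Alas2 and Slc4a1 (exact permutation p = 0.5). The pericyte sum, led by Notch3 and Acta2, was 109 to 184 CPM in CXCL12-deficient libraries and 138 to 177 CPM in control libraries (exact permutation p = 0.7). Notch3 had 108.9 CPM of a mean sum of 142.9 CPM in CXCL12-deficient libraries, and 91.9 of 156.3 CPM in control libraries. Of the 6 pericyte markers, 4 had a negative log2 fold change and 2 a positive one. Rgs5 (-1.76) was the 1 at an unadjusted p below 0.05 by edgeR. In bulk libraries fewer cells of a type and less RNA per cell cannot be told apart. The gates on GFP, and on tdTomato in the CXCL12-deficient group, select stromal cells and should remove blood cells, and reads of blood cell markers were present in both groups. The part of these cell types in the differences of the members was not tested.

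**Figure D4:**
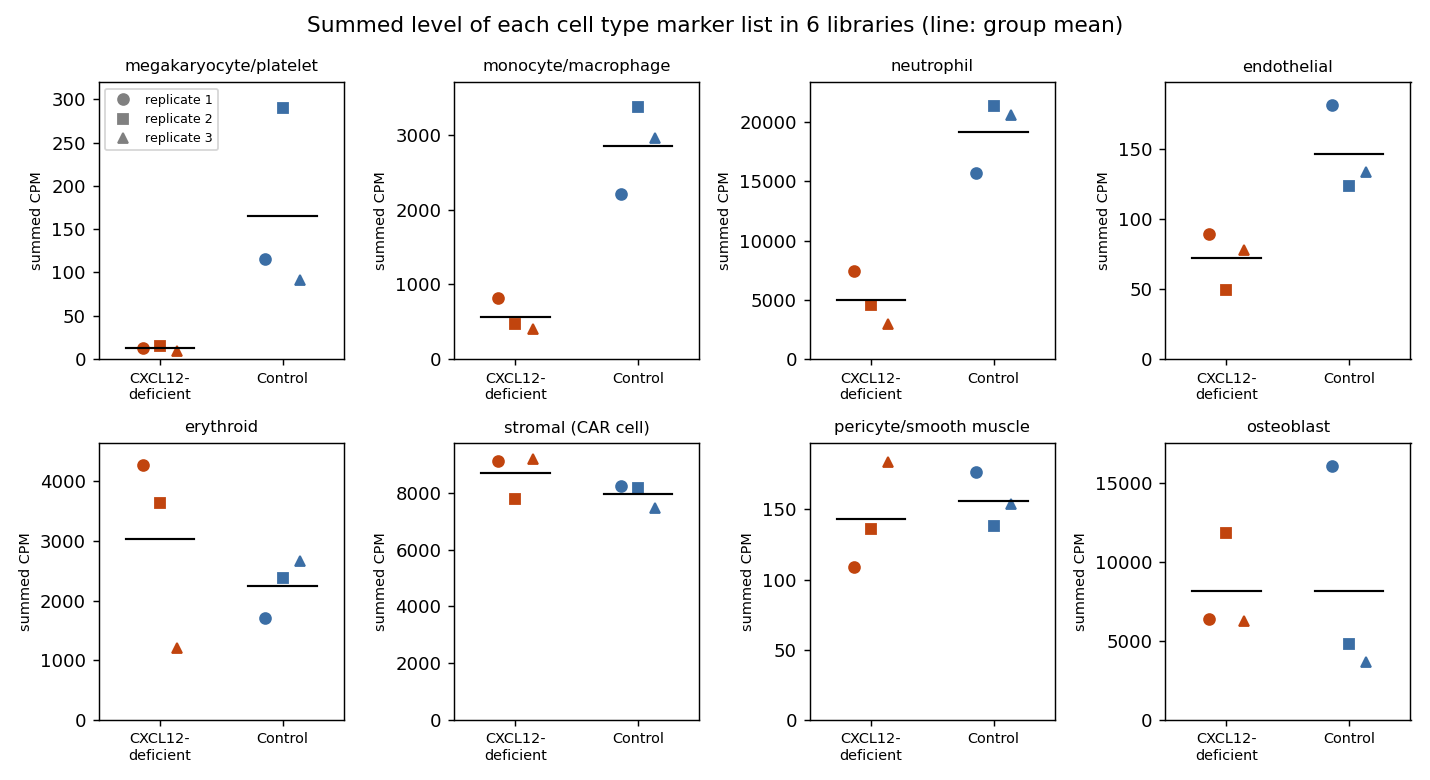
Summed CPM of 8 lists of cell type markers (vertical axes, from 0) in CXCL12-deficient (left) and control (right) libraries, with 1 symbol per replicate and a line at the mean. The megakaryocyte, monocyte, neutrophil and endothelial sums did not overlap between the groups, and the other 4 sums did. The stromal sum includes Cxcl12, the gene targeted by the cre, and the other 9 stromal markers each had a positive log2 fold change.

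Of 8 ratios of a member to such a sum within each library, 3 did not overlap between the groups and 5 did. Over single tested genes the shares without overlap were 13.9% with the CXCL12-deficient libraries lower and 11.7% with them higher. No such share was computed for ratios, and the members were chosen on this comparison, so nothing is read from this count. F13a1 equalled 1.82%, 2.92% and 2.82% of the monocyte and macrophage sum in CXCL12-deficient replicates 1, 2 and 3, against 4.37%, 3.43% and 4.99% in control replicates 1, 2 and 3. This ratio was lower in each CXCL12-deficient library, without overlap. F10 equalled 0.0863%, 0.803% and 0.144% of the same sum in CXCL12-deficient replicates 1, 2 and 3, against 0.555%, 0.725% and 0.483% in control replicates 1, 2 and 3, and the groups overlapped. F5 equalled 40.5%, 28.2% and 44.6% of the megakaryocyte sum in CXCL12-deficient replicates 1, 2 and 3, against 11.2%, 4.40% and 15.4% in control replicates 1, 2 and 3. This ratio was higher in each CXCL12-deficient library. The mean of F5 was 2.95-fold lower, and the megakaryocyte sum was at 7.46% of its control mean. F2rl2 equalled 0.329%, 5.92% and 0% of that sum in CXCL12-deficient replicates 1, 2 and 3, against 5.27%, 8.37% and 4.12% in control replicates 1, 2 and 3, with overlap. Thbd equalled 99.1%, 119% and 156% of the endothelial sum in CXCL12-deficient replicates 1, 2 and 3, against 43.5%, 93.3% and 70.5% in control replicates 1, 2 and 3, without overlap. The other 3 ratios overlapped. F13a1 equalled 89% to 126% of the megakaryocyte sum in CXCL12-deficient libraries and 39.9% to 161% in control libraries. Against the endothelial sum, F2r equalled 25.5% to 36.5% in CXCL12-deficient libraries and 18.8% to 28.3% in control libraries. Plat equalled 37.1% to 124% of it in CXCL12-deficient libraries and 20.8% to 45.6% in control libraries. The make-up of the endothelial sum differed between the groups. Ramp2, its marker called higher, had 40.9 CPM in a mean sum of 72.35 CPM in CXCL12-deficient libraries. In control libraries it had 17.9 CPM in a mean sum of 146.5 CPM.

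The osteoblast sum, led by Col1a1 and Ibsp, had its highest libraries where F3 and Plat had theirs (exact permutation p = 1 between the groups). It was 6373, 11850 and 6279 CPM in CXCL12-deficient replicates 1, 2 and 3, against 16060, 4814 and 3647 CPM in control replicates 1, 2 and 3. CXCL12-deficient replicate 2 and control replicate 1 were the highest of their groups. Each of the 7 markers was highest among controls in control replicate 1. In the CXCL12-deficient libraries the sum followed Col1a1, with 1518, 7051 and 1419 CPM in replicates 1, 2 and 3. Bglap, Bglap2 and Sp7 were also highest in CXCL12-deficient replicate 2. Ibsp and Dmp1 were highest in CXCL12-deficient replicate 1, and Alpl in CXCL12-deficient replicate 3. Without control replicate 1 the log2 fold changes of F3 and Plat were 0.93 and 0.34, and without CXCL12-deficient replicate 2 they were -0.07 and -0.58. The part of osteoblasts in these values was not tested.

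The members also differed in which genes followed the most similar course over the 6 libraries, measured as the root mean square difference of log2(CPM + 1) after centring each gene on its mean. Nearest to F10 were Mpo, myeloperoxidase of granulocyte precursors (0.25), and Ccr2, a chemokine receptor of monocytes (0.36). Nearest to F2rl2 was the megakaryocyte gene Itga2b, an integrin of platelets (0.52), at a larger distance than the nearest gene of any other tested member. Atp2a3, a calcium pump (0.27), and Cd34, of progenitors and endothelium (0.29), were nearest to F13a1. Trp53i11 and the lymphocyte signalling gene Malt1 were each 0.10 from F5. F2r was 0.07 from both Gem and Tiparp, Thbd was 0.10 from Dusp18 and 0.11 from Gmeb1, F3 was 0.08 from Spata2l and 0.10 from Tigd5, and Plat was 0.13 from Fbxw4 and 0.14 from Cpe. Among the members, F2r and Thbd (0.34) and F3 and Plat (0.36) were the closest pairs, F2rl2 and F10 were 0.53 apart, and F3 and F2rl2 were the farthest apart (1.86). These distances describe 6 libraries that share groups and sorts.

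Other genes of coagulation and fibrinolysis were taken from 5 lists of 49 genes, of which 39 were matched to an entry and 30 were tested. Most were not called: 2 of the 30 fell and 0 rose by edgeR, beside the background of 3.94% and 0.639%, and the median log2 fold change was 0.01. At an unadjusted p below 0.05, 4 were lower and 3 higher, and DESeq2 and limma-voom each called 2 lower and 0 higher. Arrb2, which encodes beta-arrestin 2, an adaptor that uncouples activated receptors such as the PARs from G proteins, had 30.6, 22.2 and 25.7 CPM in CXCL12-deficient replicates 1, 2 and 3. Control replicates 1, 2 and 3 had 68.3, 69.6 and 86.2 CPM. It fell by 1.51 ± 0.19 on the log2 scale (adjusted p = 0.0055, edgeR) and was called in all 13 alternatives run. Plaur, the receptor of urokinase, had 91.5, 47.5 and 28.1 CPM in CXCL12-deficient replicates 1, 2 and 3, against 227, 230.4 and 275 CPM in control replicates 1, 2 and 3. Its log2 fold change was -2.13 ± 0.37 (adjusted p = 0.016, edgeR). The call was lost without CXCL12-deficient replicate 2 (adjusted p = 0.058), control replicate 2 (0.055) or control replicate 3 (0.071), within a range of 4.6e-08 to 0.071 over the alternatives. Both genes are also known from leukocytes. The neutrophil and monocyte sums were at 25.9% and 19.8% of their control means, and the part of those cells in these calls was not tested.

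The 4 G protein genes of thrombin receptor signalling and Arrb1 were not called, with log2 fold changes from -0.25 (Gna13) to 0.39 (Gna11). Of 3 tested plasma factors 0 were called by edgeR, DESeq2 or limma-voom, with 1 lower and 1 higher at an unadjusted p below 0.05. Kng1, the kininogen gene, which has a close copy in the mouse genome and is therefore uncertain, had 668 ± 233 CPM in CXCL12-deficient libraries and 411 ± 129 CPM in control libraries (SD, n = 3 each, adjusted p = 0.24, edgeR). Vwf, the von Willebrand factor gene of endothelium and platelets, had 1.36 ± 1.53 CPM in CXCL12-deficient libraries and 4.76 ± 1.28 CPM in control libraries (adjusted p = 0.25, edgeR). It was called only without CXCL12-deficient replicate 1, at a log2 fold change of -3.29 (adjusted p = 0.031, within a range of 0.031 to 0.51). Of 7 anticoagulant genes none was called by the 3 tools, with 1 lower and 0 higher at an unadjusted p below 0.05 by edgeR. Serpine2, a cell surface inhibitor of thrombin, was the most abundant at 5655 ± 411 CPM in CXCL12-deficient libraries and 4319 ± 829 CPM in control libraries (adjusted p = 0.34, edgeR), followed by Pros1, protein S, at 417 CPM in CXCL12-deficient libraries and 379 CPM in control libraries. Of 6 genes that process clotting factors none was called by the 3 tools, with 0 lower and 2 higher at an unadjusted p below 0.05 by edgeR. Mcfd2 and Lman1, which carry factors V and VIII out of the endoplasmic reticulum, had 252 and 145 CPM in CXCL12-deficient libraries and 187 and 126.5 CPM in control libraries.

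**Figure D5:**
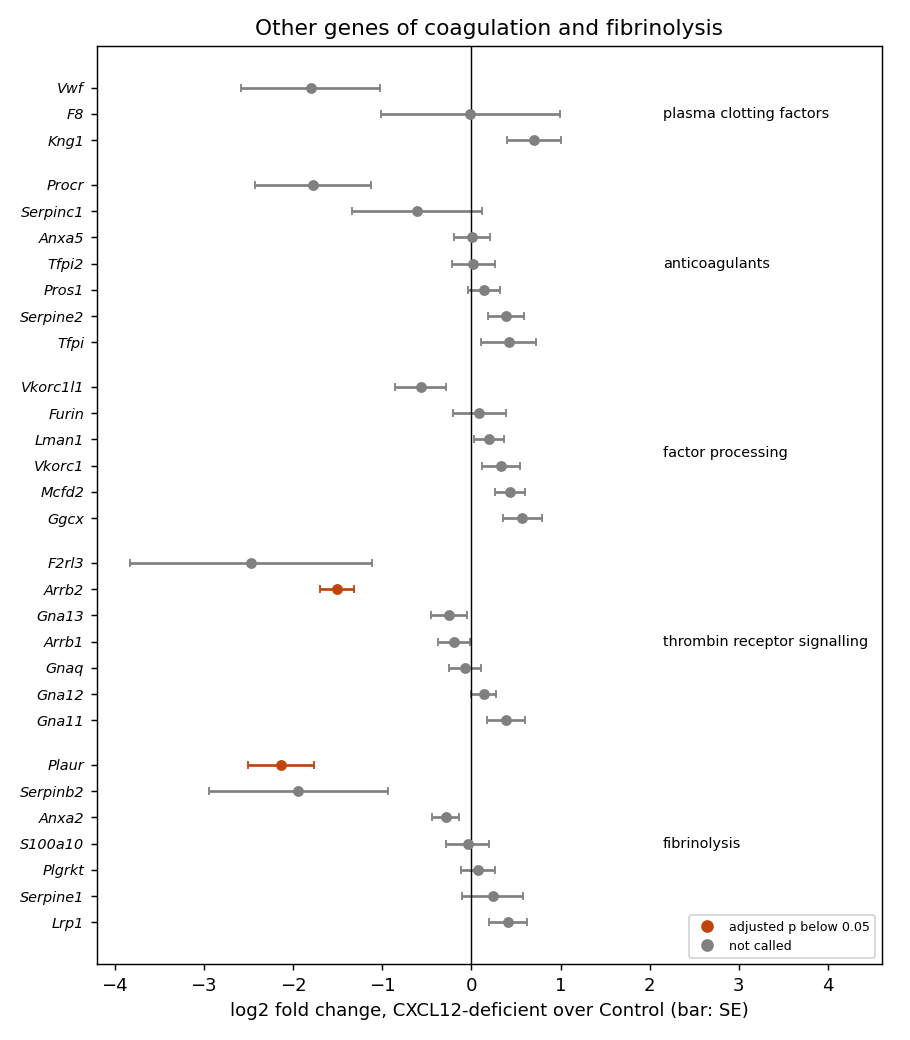
Log2 fold change of CXCL12-deficient over control libraries with SE (horizontal axis) for the 30 tested genes of 5 lists of coagulation and fibrinolysis, with genes called at an adjusted p below 0.05 in red. Arrb2 (-1.51) and Plaur (-2.13) were the 2 called genes.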

How the data were processed

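Expression was measured by RNA sequencing in 6 libraries, grouped by the genotype in the labels. The values are raw read counts by gene as the authors deposited them. Build mm10 is listed in the submitters' processing notes, with TopHat2 2.0.13 and Bowtie2 2.2.1 among the tools. HTSeq, FastQC, DESeq2, Cuffdiff and Cufflinks are listed too, and which tool did what is not recorded there. For annotation and strand setting, the entry is "not given in the sources used here". The deposited table held 17131 entries, and 4 Cxcl12 exon entries were summed to 1 gene. Genes were filtered with filterByExpr (minimum count 10, minimum total 15), scaled by TMM factors and tested with the robust quasi-likelihood test of edgeR 4.0.16 (R 4.3.3). P-values were adjusted by the Benjamini-Hochberg method over 13926 genes, with a threshold of 0.05. CPM used the same factors, and floors of 3 reads cover counting error only. SE came from the F statistic. Lengths came from GENCODE M21.

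The members and the gene lists were chosen with earlier results of these data known. Of the listed genes 2 were found under an older symbol. Named were all members, called genes of each pathway list or else its 2 most abundant, the 2 most abundant of each marker list, and the 2 nearest genes of at least 5 CPM to each member, of which 1 is not reported here. Gp6, Adipoq, Ebf3, Adgre1, Cd68, Fcgr1, Gna11, Gna13, Iqgap2 and the genes of low reads were named after their values were seen. So were Cx3cr1, Mpeg1, Rgs5, Bglap, Bglap2, Sp7, Alpl and Dmp1. Tried as alternatives were other scaling (upper quartile and DESeq2 size factors), 2 other filters, a fit without robust shrinkage, other tools (limma-voom with limma 3.58.1, and DESeq2 1.42.0), another length, and the omission of each library. The steps were tested on simulated data.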

Additional observations from a re-analysis of the deposited data

How the results depend on the processing

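The 4 members called lower were 4 with DESeq2 size factors, upper quartile factors, no robust shrinkage and DESeq2, and 3 with either other filter and with limma-voom, where F2rl2 was the member not called or not tested. With 1 library left out the count ran from 1 to 4. It was 2 without CXCL12-deficient replicate 1 or 3, and 1 without control replicate 2 or 3. The 2 pathway genes called lower ran from 1 to 3. The count was 1 without CXCL12-deficient replicate 2, control replicate 2 or control replicate 3, and 3 without CXCL12-deficient replicate 1. No member or pathway gene was called higher by edgeR in any of these refits. With the longest transcript as the length, 3 of the 9 ranks of level in controls were kept, and all 9 in the CXCL12-deficient libraries. No called gene named among members and pathway genes changed sign. The background moved too: without control replicate 3, 74 genes were called lower, against 548 with all libraries, and DESeq2 called 989. No paired analysis was possible because the labels give no replicate numbers, and those used here follow deposit order and pair nothing. Depth limits F7 and F2rl2, which had 0 reads in some CXCL12-deficient libraries, and with 3 libraries a group the causes of lost calls were not tested.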

Other observations

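Some plasma protein genes that are known chiefly from liver had few reads, in 1 to 3 of the 6 libraries, and these genes were chosen after their values were seen. F9, coagulation factor IX, had 0, 40 and 0 reads in CXCL12-deficient replicates 1, 2 and 3, and 0 reads in each of the 3 control libraries. Fga, a fibrinogen chain, had 29 reads in CXCL12-deficient replicate 2 and 5 in control replicate 2, and none in the other libraries. Klkb1, plasma prekallikrein, had 42, 13 and 0 reads in CXCL12-deficient replicates 1, 2 and 3, against 11, 0 and 0 reads in control replicates 1, 2 and 3.

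Among the receptors outside the members, F2rl3, which encodes PAR4, the thrombin receptor that PAR3 assists on mouse platelets, had 1, 26 and 0 reads in CXCL12-deficient replicates 1, 2 and 3, against 33, 111 and 19 reads in control replicates 1, 2 and 3. CXCL12-deficient replicate 2 and control replicate 2 were the highest libraries of their groups, as for F2rl2, F10 and the megakaryocyte sum. Its groups overlapped in CPM, with a log2 fold change of -2.47 ± 1.36 (adjusted p = 0.37, edgeR). F2rl1, which encodes PAR2, had at most 2 reads in any library.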
